A study of Mus musculus with 13 samples.

Results

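The 9 genes described here, Arrdc4, Daxx, Tmem241, Mcoln1, Hexim1, Pias4, Inpp5j, Tspan31 and Lancl1, lie at strong binding sites of the cohesin subunit STAG2 at which no CTCF peak was called. They were chosen by the STAG2 and CTCF peak lists themselves. A member site is a stretch of merged STAG2 peaks, joined where they share at least 1 bp, that was called in all 4 STAG2 libraries, overlaps no peak of the 4 CTCF libraries and lies within 1 kb of an end of the gene. Of 27091 STAG2 sites called in all 4 libraries, 2292 (8.46%) met the CTCF criterion and 545 of those lay at an end of a protein-coding gene. The 9 genes are among 21887 protein-coding genes of the gene table, and their STAG2 values are therefore descriptions and were not tested.

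The study profiled STAG1, STAG2 and CTCF by chromatin immunoprecipitation and sequencing in NU1 cells, a wild-type mouse urothelial line that became immortal through serial passage, so that all libraries come from a single line. Proliferating cells were compared with confluent cells made quiescent in medium with 1 µM rosiglitazone, a PPARγ agonist, and 0.5 µM erlotinib, an EGFR inhibitor, so that confluence and both drugs differ together between the states. Each of the 6 groups had 2 libraries labelled as biological replicates. The lists held 34281 to 47295 STAG2 peaks, 35594 to 50468 STAG1 peaks and 51835 to 71757 CTCF peaks per library. Read depth is not given in these files. With 2 libraries against 2, an exact two-sided permutation test cannot reach 0.05, and no test was run.

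Cohesin is a ring of proteins that encircles DNA, holds sister chromatids together and extrudes chromatin loops. Each ring carries either STAG1 or STAG2. CTCF, a zinc finger protein, stops loop extrusion, and in many cell types most cohesin peaks sit where CTCF is bound. STAG2 is often lost in bladder cancer, which arises from the urothelium, and cohesin sites without CTCF are known mainly from active promoters and enhancers.

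The promoters below lay under 5 of the member sites in the RefSeq promoter table (GRCm38.p6, the assembly of mm10), and they are shown because STAG2 peaked in or beside them while CTCF did not. Each run is the 300 bases from 250 before to 50 after the start of transcription, on the strand of its gene, 5′ to 3′. Capitals mark the bases between the lowest and the highest of the 4 STAG2 summits, as far as they fall within the promoter. The sites of Arrdc4, Tspan31 and Lancl1 cover the genes' own promoters, on the minus strand at chr7:68749189-68749488, chr10:127070212-127070511 and chr1:67038785-67039084. The sites of Daxx and Mcoln1 lie at the 3′ end of the gene and cover the promoter of the next gene, Zbtb22 at chr17:33915926-33916225 and Pnpla6 at chr8:3515161-3515460, both on the plus strand. A second Pnpla6 promoter of the table, at chr8:3515386-3515685, also lies within the site and is not shown.
Arrdc4: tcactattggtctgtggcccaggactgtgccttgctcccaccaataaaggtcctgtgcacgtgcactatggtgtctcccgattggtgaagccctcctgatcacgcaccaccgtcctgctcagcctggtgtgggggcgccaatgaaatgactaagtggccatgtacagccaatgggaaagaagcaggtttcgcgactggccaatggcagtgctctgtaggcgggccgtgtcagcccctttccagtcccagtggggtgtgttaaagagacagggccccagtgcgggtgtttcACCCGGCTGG
Zbtb22: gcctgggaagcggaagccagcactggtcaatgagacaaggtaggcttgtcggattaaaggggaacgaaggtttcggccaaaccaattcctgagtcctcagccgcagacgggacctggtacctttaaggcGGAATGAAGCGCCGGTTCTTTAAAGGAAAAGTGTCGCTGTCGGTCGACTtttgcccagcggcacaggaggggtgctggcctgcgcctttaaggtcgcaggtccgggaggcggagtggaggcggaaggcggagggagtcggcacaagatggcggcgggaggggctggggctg
Pnpla6: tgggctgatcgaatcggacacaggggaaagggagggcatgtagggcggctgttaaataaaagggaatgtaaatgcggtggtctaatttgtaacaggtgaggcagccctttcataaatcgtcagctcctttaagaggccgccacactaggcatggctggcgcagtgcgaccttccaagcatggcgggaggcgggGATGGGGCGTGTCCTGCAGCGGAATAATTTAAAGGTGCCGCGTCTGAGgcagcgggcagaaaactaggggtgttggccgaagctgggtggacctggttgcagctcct
Tspan31: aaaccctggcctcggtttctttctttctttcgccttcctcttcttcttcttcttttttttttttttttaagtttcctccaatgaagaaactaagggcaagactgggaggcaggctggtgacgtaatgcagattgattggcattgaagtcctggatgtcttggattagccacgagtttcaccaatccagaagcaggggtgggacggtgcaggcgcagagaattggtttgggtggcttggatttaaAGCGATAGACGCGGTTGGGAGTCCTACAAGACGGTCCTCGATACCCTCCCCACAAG
Lancl1: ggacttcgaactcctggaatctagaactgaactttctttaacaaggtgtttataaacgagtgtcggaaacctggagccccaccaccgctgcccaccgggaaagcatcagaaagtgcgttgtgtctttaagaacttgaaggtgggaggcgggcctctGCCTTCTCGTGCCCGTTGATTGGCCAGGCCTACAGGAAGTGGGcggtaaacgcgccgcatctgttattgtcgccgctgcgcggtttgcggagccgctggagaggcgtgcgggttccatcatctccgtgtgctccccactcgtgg

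Only promoters that overlap a member site were taken, which limits how far a summit can lie from the start. At Hexim1, Pias4, Inpp5j and Tmem241, with no promoter shown, the summits lay 856, 1250, 628 and 4 bases on average from the nearest gene end. At the promoters shown, the summits lay 121 to 73 bases before the Zbtb22 start and 57 to 10 bases before the Pnpla6 start. They lay 282 to 235 bases before the second Pnpla6 start and 94 to 52 bases before the Lancl1 start. At Tspan31 they spread from 6 bases before to 76 bases after the start, and at Arrdc4 all 4 lay 40 to 115 bases after it. The GC content of these promoters ran from 48.3% at Tspan31 to 61.3% at Zbtb22, against a median of 57.5% over the 504 protein-coding promoters at a STAG2 site without CTCF and 63.7% over the 9902 at STAG2 sites with CTCF only.

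After the peaks had been seen, 21 short patterns were searched on both strands of 21263 promoters. All words of 6 and 8 letters were scanned at the same time, with no result of that scan given here. The patterns were the CCAAT box CCAAT and its longer form on the other strand, GATTGGC, which counts under both. For basic helix-loop-helix factors the E-box CACGTG was used, beside its variant CACGCG. The GC box was searched as GGGCGG, and the CACCC box as CCACCC. The ETS core was CCGGAA, the AP-1 site TGANTCA, the cyclic AMP element TGACGTCA and the nuclear receptor half-site AGGTCA. The NRF1 core was GCATGCGC, the YY1 site AAGATGGC, the ZNF143 site CTACAATTC and the TATA box TATAAA. The promoter element TCTCGCGA was added. E2F sites were TTTCGCGC or the alternative TTTGGCGC, and cell cycle homology elements were TTTGAA or the alternative TTCGAA. Parts of the CTCF core were AGGGGGC or the alternative AGGTGGC. The share of promoters holding a pattern differed between STAG2 sites without and with CTCF by 15.5 percentage points for CCAAT (51.0% against 35.5%, and 38.2% of all promoters) down to -14.0 points for GGGCGG (58.7% against 72.8%, and 46.2% of all). No test was run on these shares, and the GC content of both sets differs as given above. The Arrdc4 promoter held 6 matches to CCAAT, the Tspan31 promoter 4, the Lancl1 and Zbtb22 promoters 1 each, and the Pnpla6 promoter shown 0. At least 6 were found in 4 of 504 promoters at STAG2 sites without CTCF (0.794%), 0.131% of those with CTCF and 0.0941% of all. The Arrdc4 promoter is itself 1 of those 4. At least 4 were found in 4.76%, 1.55% and 1.25%, in the same order, with Tspan31 and Arrdc4 counted in the first share. Both cuts are the members' own counts, so these shares are descriptions and do not test whether either promoter is unusual. CACGTG was found in the Arrdc4 promoter (1 match) and in none of the other 4, against 11.7% of promoters at STAG2 sites without CTCF, 10.6% of those with CTCF and 7.84% of all. AGGGGGC was in none of the 5, against 9.92% of promoters at STAG2 sites without CTCF, 19.3% of those with CTCF and 12.9% of all. For the alternative AGGTGGC these were none, 6.55%, 7.69% and 6.24%. Both are parts of the CTCF core and the sites were chosen for lacking a CTCF peak, so nothing is concluded from their absence.

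Among genes with roles in chromatin and transcription, Daxx encodes a chaperone that deposits the histone variant H3.3. Its site (chr17:33915706-33916457) ranked second of the 545 by the mean percentile of its peaks in the 4 STAG2 lists, at 91.0. Fold enrichment, the authors' value for each peak over their background track, was 24.0 and 26.0 in proliferating and 30.3 and 28.7 in quiescent libraries, so both quiescent values were the higher ones. No STAG1 library had a peak there. CTCF came close without overlapping, with the nearest CTCF peak 197 bases away. That peak was part of a site called in all 4 CTCF libraries (mean CTCF fold 6.37), with its centre 0.948 kb toward Daxx.

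Hexim1 encodes a protein that, with 7SK RNA, holds the elongation kinase P-TEFb inactive. Its site (chr11:103115016-103115774) lay upstream of the gene, with the STAG2 summits 856 bases on average before the gene's lower end and within 17 bases of each other. STAG2 fold was 23.5 and 22.8 in proliferating and 29.2 and 19.5 in quiescent libraries, so the groups overlapped. STAG1 was called in both proliferating libraries, at 6.38 and 5.37, and in neither quiescent one. Only 193 bases separated the site from CTCF: a stretch over the gene itself carried STAG2, STAG1 and CTCF in all 12 libraries, with mean folds of 26.9, 29.0 and 44.3.

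Pias4 encodes a SUMO ligase. Its site (chr10:81168628-81169729) lay beyond the gene's higher end, with summits 1250 bases past it on average, and had no STAG1 peak. STAG2 fold was 22.0 and 22.0 in proliferating and 21.3 and 25.2 in quiescent libraries. A further STAG2 site without CTCF, centred 1.50 kb toward the gene, was weaker (mean STAG2 fold 12.9, rank 26 of the 545) and had STAG1 in 3 of 4 libraries. The nearest CTCF peak was 1661 bases away.

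Of the genes for membrane proteins, Mcoln1 encodes the lysosomal cation channel TRPML1. Its site (chr8:3515058-3515750) spans the 3′ end of Mcoln1 and the start of Pnpla6, a lysophospholipase gene. STAG2 fold was 26.3 and 28.1 in proliferating and 23.9 and 26.6 in quiescent libraries, the narrowest relative spread after Inpp5j, with a highest to lowest ratio of 1.18. STAG1 was called in 3 libraries, at 4.40 to 6.05. A STAG1, STAG2 and CTCF site called in all 12 libraries was centred 1.33 kb into Pnpla6, where STAG1 (mean fold 13.1) was above STAG2 (11.0).

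Tspan31 encodes a tetraspanin and lies next to Cdk4, the gene of a cell cycle kinase. STAG2 fold at its site (chr10:127069910-127070538) was 17.7 and 21.0 in proliferating and 21.0 and 14.2 in quiescent libraries, with no STAG1 peak. The nearest CTCF peak was 718 bases away. The widest summit range of the 9 sites, 82 bases, was found here.

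Arrdc4 encodes an alpha-arrestin, an adaptor for ubiquitin ligases whose transcription is known to follow glucose supply. Its site (chr7:68748352-68749611) was the strongest of the 9 in all 4 STAG2 lists and of all 2292 by mean percentile, at 96.1. STAG2 fold was 34.5 and 40.8 in proliferating and 52.6 and 31.5 in quiescent libraries, and the quiescent pair enclosed the proliferating one. STAG1 was called in all 4 libraries, at 10.0 and 16.9 in proliferating and 7.25 and 7.25 in quiescent cells, so both quiescent values were lower. No CTCF peak lay in the gene or within 20 kb of it, and the nearest was 42688 bases away.

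Inpp5j encodes an inositol polyphosphate 5-phosphatase. Its site (chr11:3504522-3505229) lay inside the gene, 628 bases on average from the higher end, and its 4 STAG2 summits fell within 6 bases. STAG2 fold was 22.7 and 19.3 in proliferating and 22.0 and 20.3 in quiescent libraries, with no STAG1 peak. The nearest CTCF peak was 8904 bases away. A much stronger site with all 3 proteins in all 12 libraries, at the Selenom gene, was centred 9.80 kb away, with mean folds of 46.0 for STAG2, 55.3 for STAG1 and 58.8 for CTCF.

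Lancl1 encodes a LanC-like protein that binds glutathione. STAG2 fold at its site (chr1:67038439-67039242) was 14.0 and 22.7 in proliferating and 18.3 and 15.7 in quiescent libraries, and STAG1 was called in 1 library, a proliferating one, at 5.00. The window held 1 other site with STAG2 in all 4 libraries, 9.27 kb away within the gene.

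Tmem241 encodes a membrane protein related to nucleotide sugar transporters. Its site, on chromosome 18 from 12121111 to 12121889 across the higher end of the gene, had STAG2 folds of 25.0 and 24.2 in proliferating and 30.5 and 26.6 in quiescent libraries. Both quiescent values were higher, as at Daxx. STAG1 was called in all 4 libraries but low, at 4.00 and 7.40 in proliferating and 3.75 and 5.75 in quiescent cells, the lowest at the 3.27th percentile of its list.

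**Figure D1:**
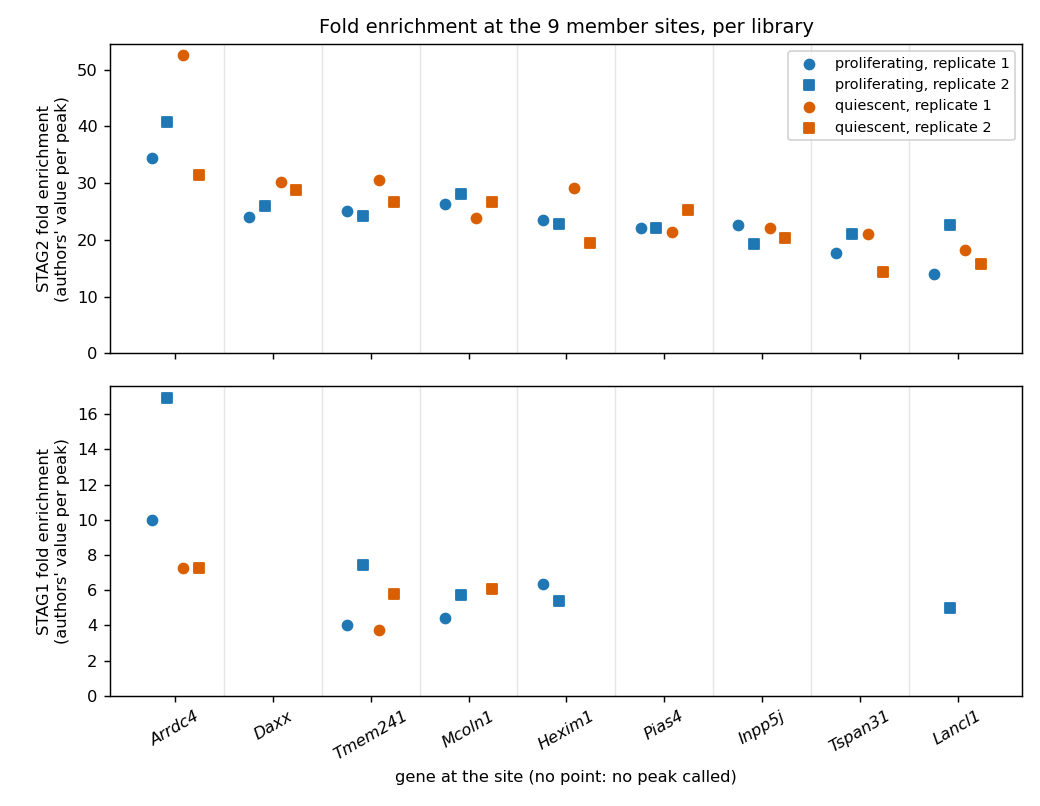
Authors' fold enrichment (linear axis from 0) of the STAG2 peak (top) and STAG1 peak (bottom) at each of the 9 member sites, 1 point per library, with colour for state and marker for replicate and no point where no peak was called. STAG2 has 4 points at every gene, from 14.0 at Lancl1 to 52.6 at Arrdc4, while STAG1 has points at 5 genes and reaches 10 only at Arrdc4.

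Over the 9 sites, STAG2 fold was higher in both quiescent than in both proliferating libraries at 2 (Daxx and Tmem241) and lower at 0, and the states overlapped at 7. Over all 2292 sites of this kind the first pattern was found at 18.6% and the second at 25.7%. The highest STAG2 value at a site was 1.17 times (Inpp5j) to 1.67 times (Arrdc4) the lowest. These folds come from lists that the authors called separately. By percentile within the list the states overlapped at both genes. Daxx had 88.8 and 94.1 in proliferating against 89.9 and 91.1 in quiescent libraries, and Tmem241 had 89.6 and 92.9 against 90.1 and 89.3.

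STAG1, which the rule did not use, varied widely over the 9 sites. A STAG1 peak was called in none of the 4 libraries at 4 sites (Daxx, Pias4, Inpp5j and Tspan31), in 1 at Lancl1, in 2 at Hexim1, in 3 at Mcoln1 and in all 4 at Arrdc4 and Tmem241. No STAG1 peak was found at 6.89% of the 2292 sites of the same kind, at 6.55% of the 229 with the highest mean STAG2 percentile, and at 0.31% of the 24799 STAG2 sites with CTCF. All 4 STAG1 libraries had a peak at 32.2% of the 2292. The absence of these 4 STAG1 peaks was already known when the genes were put together, and an absent peak shows only that none passed the authors' threshold. With the lists shortened to the 20000 peaks of highest −log10 q, 7 sites had no STAG1 peak. Arrdc4 kept a STAG1 peak in 4 libraries and Tmem241 in 1. The share over all 2292 sites is not given for the shortened lists, so 6.89% and 6.55% are no background for this count. Where STAG1 was called, its percentile in its list was 80.1 at most (Arrdc4) and 49.9 or less at the other 4 genes.

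**Figure D2:**
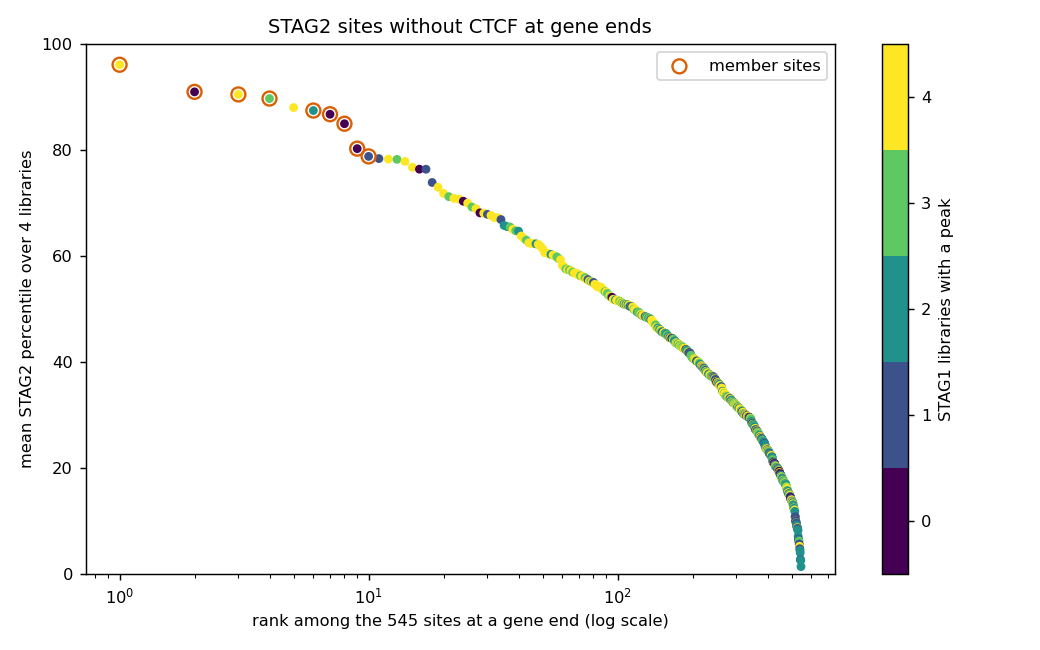
Mean STAG2 percentile over the 4 libraries of the 545 STAG2 sites without CTCF at gene ends, against their rank (log axis), coloured by the number of STAG1 libraries with a peak; rings mark the 9 member sites. Ranks 1 to 10 hold the 9 members and 1 further site, and the members run from 0 to 4 STAG1 libraries.

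The rule has no sharp edge. Lancl1, the lowest member, had a mean percentile of 78.8, and the next sites were at Wrap73 (78.4, STAG1 in 1 library), Sdcbp (78.3, STAG1 in 4) and Ier2 (78.2, STAG1 in 3). One site that is at no member gene ranked above Lancl1. Measured by the Euclidean distance over the percentiles in the 8 STAG lists, with 0 where no peak was called, sites near to the mean of the members were at Wrap73 (30.4) and Ier2 (36.9).

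The surroundings of the 9 sites had little in common. A CTCF peak lay within 20 kb of 8 of the sites, all but Arrdc4, against 83.9% of the 2292. Within 1 kb it was 4 of the 9 sites (Hexim1, Daxx, Mcoln1 and Tspan31), against 18.8% of the 2292. The median distance to the nearest CTCF peak was 1661 bases for the members, 4626 bases for the 2292 sites and 4789 bases for the 229 strongest, with members ranging from 193 to 42688 bases. With 20000 peaks per list the members' median was 8904 bases. The median over all 2292 sites is not given for that setting, so the values above are no background for it.

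**Figure D3:**
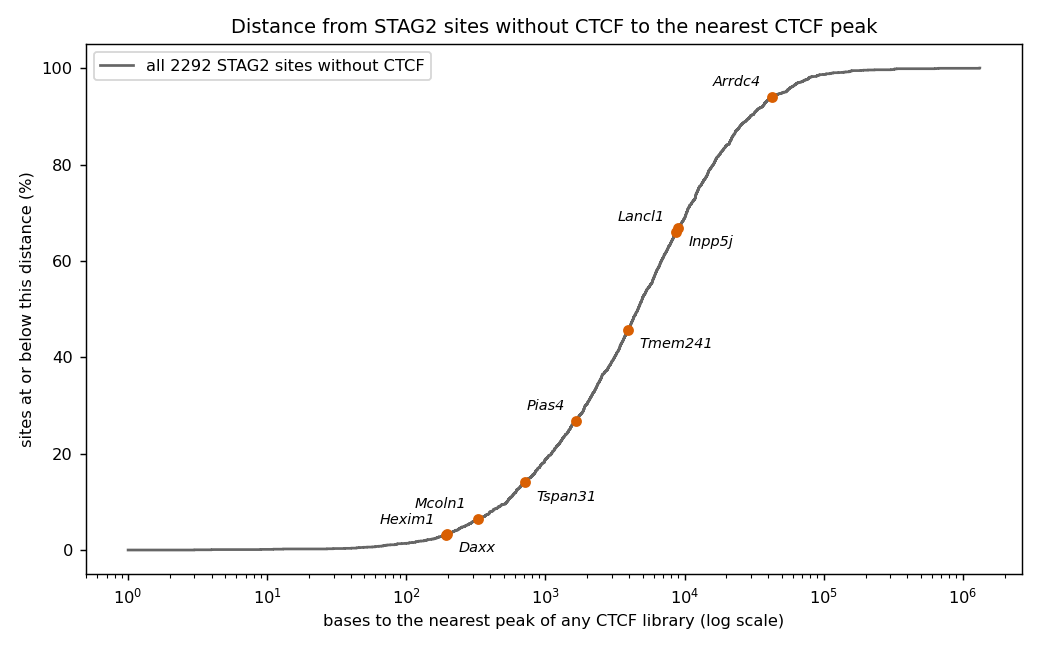
Cumulative share of the 2292 STAG2 sites without CTCF (vertical axis, %) by bases to the nearest peak of any CTCF library (log axis), with the 9 member sites as points. Hexim1 and Daxx, at 193 and 197 bases, sit at the low end of the curve and Arrdc4, at 42688 bases, near its top.

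Each gene was then taken with 20 kb on both sides. These 9 windows held 92 other merged sites of any of the 3 proteins, 32 of them with STAG2 in all 4 libraries, and 30 of these 32 overlapped a CTCF peak. The remaining 2 were both near Pias4. Of all 27091 STAG2 sites in all 4 libraries, merged over STAG2 peaks alone, 8.46% overlapped no CTCF peak, so a small remainder is usual. Sites called in all 12 libraries numbered 17, none at Arrdc4 or Lancl1. CTCF was called in all 4 of its libraries at 41 sites, of which 10 had neither STAG1 nor STAG2, 4 of them around Tspan31 and 3 around Daxx. Shares over all sites are not given for the sites in all 12 libraries or for these CTCF sites.

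The member site had the highest mean STAG2 percentile of its window at Arrdc4, Tmem241, Mcoln1 and Lancl1. At Arrdc4 it was the only site with STAG2 in all 4 libraries. Elsewhere a site with CTCF ranked higher: within Tapbp at Daxx, at Acbd4 and Plcd3 and over Hexim1 itself, at Zbtb7a and 6.03 kb past the Pias4 site, at Selenom near Inpp5j, and within Marchf9 near Tspan31. Other sites among the top 3 of a window lay at Riok3 (Tmem241 window), Zfp358 (Mcoln1) and Agap2 (Tspan31). At Zbtb7a the mean folds were 32.6 for STAG2, 9.52 for STAG1 and 12.4 for CTCF.

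**Figure D4:**
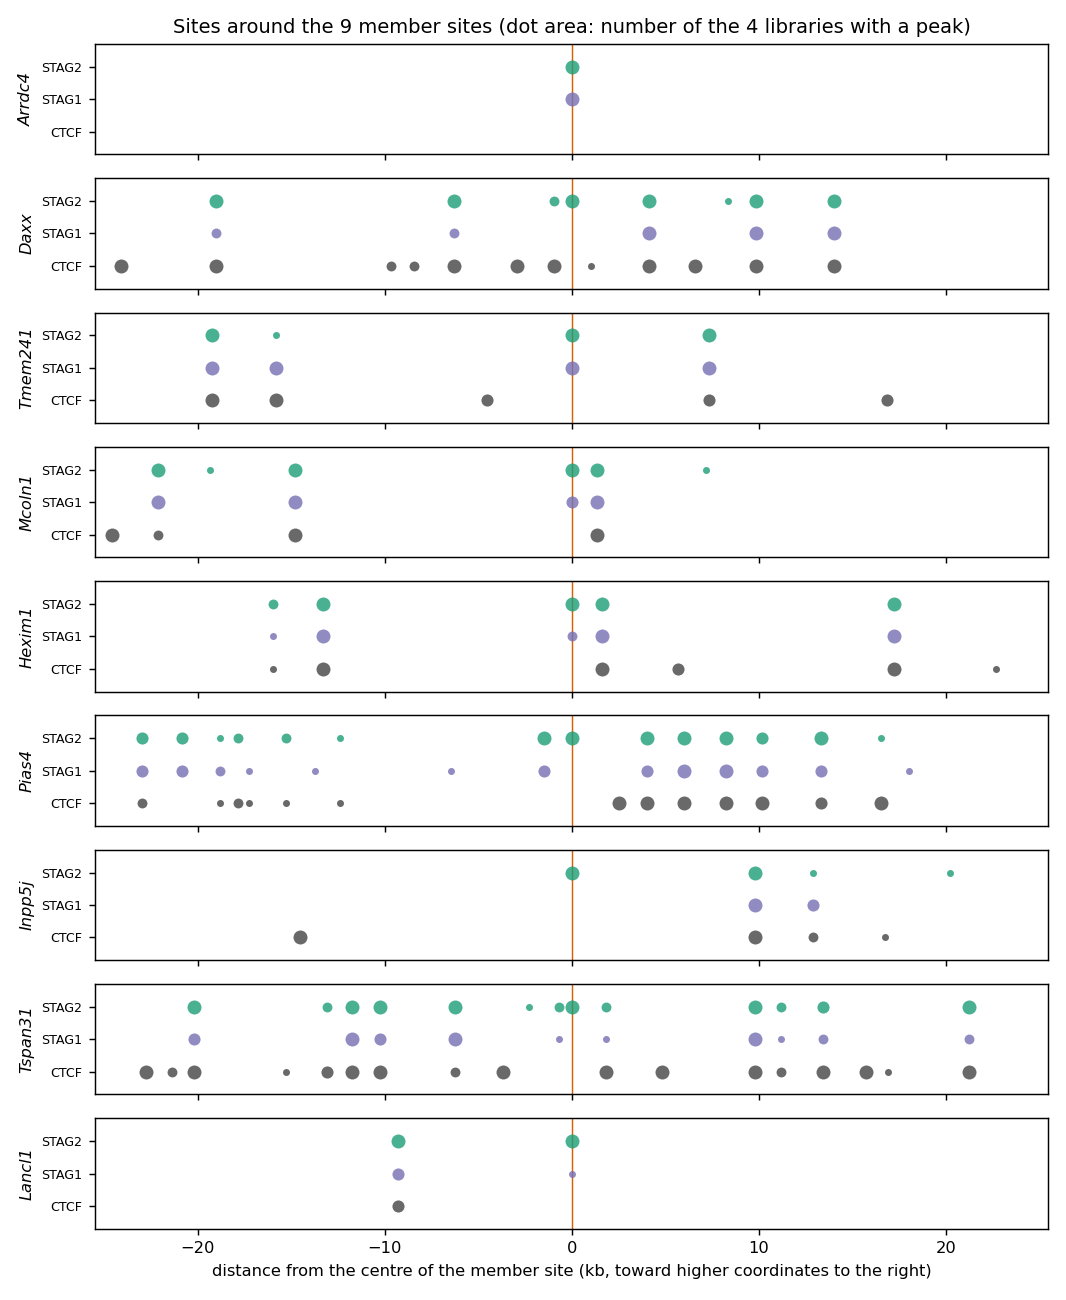
Merged sites in the gene spans with 20 kb on both sides, within 25 kb of each member site (orange line), by distance from its centre (kb); dot area is the number of the 4 libraries of that antibody with a peak. No CTCF dot lies on the orange line, the Arrdc4 panel has no CTCF dot at all, and the Daxx, Pias4 and Tspan31 panels are crowded.

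Peak numbers in the windows were counted outside the member sites. In STAG2 they summed to 51 and 57 in proliferating and 55 and 47 in quiescent libraries, in STAG1 to 37 and 55 against 35 and 37, and in CTCF to 67 and 68 against 64 and 65. For STAG2, 0 of 9 windows had fewer peaks in both quiescent than in both proliferating libraries and 0 had more. Over all 21887 genes, with every peak in the window counted here and below, these shares were 17.1% and 1.5%. With the peaks of the member sites counted too, both STAG2 counts stayed at 0. The count of windows with fewer was 2 without proliferating replicate 1, 1 without proliferating replicate 2, 3 without quiescent replicate 1 and 2 without quiescent replicate 2. It was 3 with 50 kb on each side. The share over all genes is not given for these settings, so 17.1% is no background for these counts. For STAG1 the Hexim1 window had fewer (6 and 5 against 3 and 4) and none had more, against 11.9% and 1.1% of all genes. For CTCF the Tspan31 window had fewer (17 and 15 against 14 and 12) and none had more, against 5.45% and 9.39% of all genes. Proliferating STAG1 replicate 2, the longest STAG1 list, stood apart at Pias4, with 23 peaks against 9 in replicate 1 and 11 in both quiescent libraries.

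**Figure D5:**
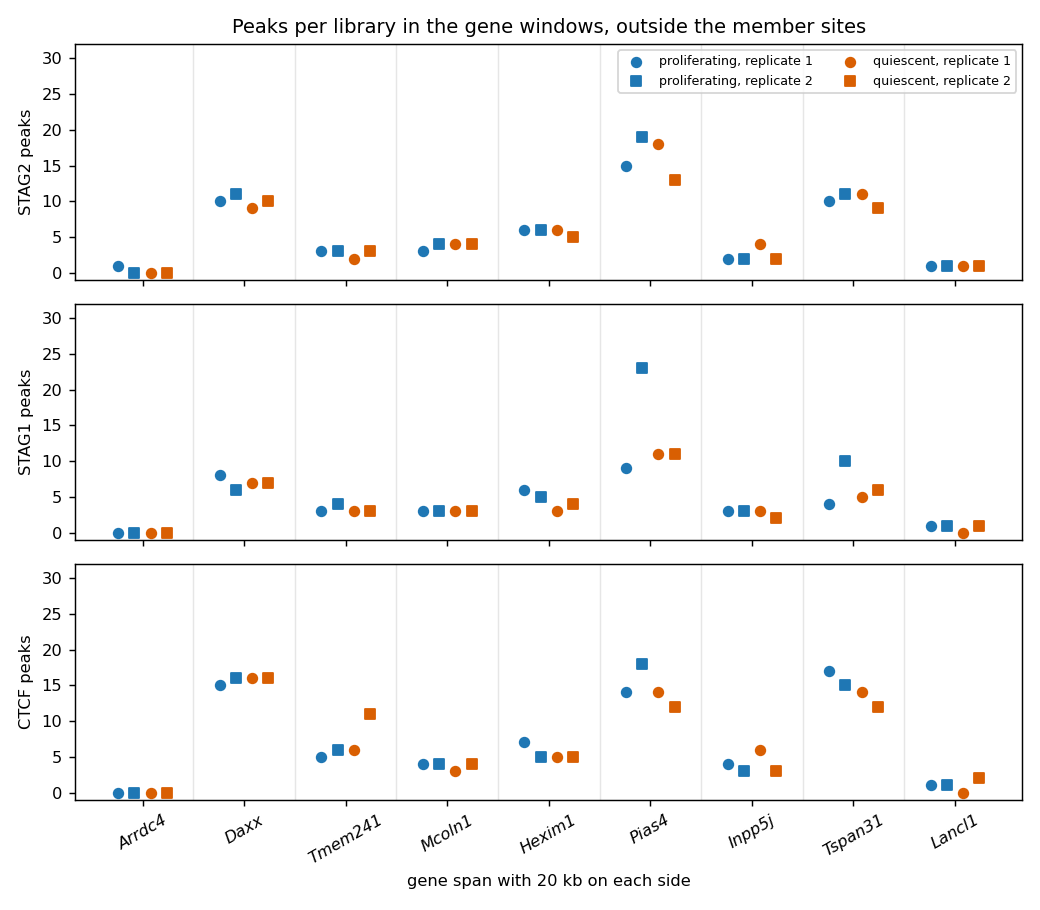
Peaks per library (linear axis) in each gene span with 20 kb on both sides, without those of the member site, for STAG2, STAG1 and CTCF; colour is the state and marker the replicate. The states overlap at every gene for STAG2, and the STAG1 value of 23 at Pias4 is the highest point of its panel.

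Other genes of the members' pathways had a site of the same kind at about the share of all genes. Of 149 genes in 9 lists, 4 had a STAG2 site in all 4 libraries without CTCF within 1 kb of an end (2.68%), against 2.86% of all protein-coding genes. They were Arrdc3, an alpha-arrestin gene, Ell, a subunit gene of elongation complexes, and Lamp2 and Tfe3, which encode a lysosomal membrane protein and a transcription factor of lysosomal genes. The highest of these 4 sites was at Lamp2, with STAG2 folds from 8.98 to 14.0 and rank 43, and Arrdc3, at 4.20 to 7.50, ranked 444. All 4 were weaker than the members' sites, which follows from choosing the members for strong STAG2 peaks. The lists on H3.3 deposition (16 genes), SUMO conjugation (19), inositol 5-phosphatases (10), tetraspanins (30), LanC-like proteins (2) and nucleotide sugar transporters (14) had none. STAG2 sites in all 4 libraries of either kind were at the ends of 120 of the 149 genes (80.5%), against 52.2% of all protein-coding genes.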

How the data were processed

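Peak lists of 12 libraries were used; the input sample was not analysed here. Per the submitters' processing notes, BWA, Picard, MACS2 and HOMER were used with mm10; versions are not given in the sources used here. Each deposited list holds the peaks the authors called in a single library. For each peak the authors' MACS2 run gave a fold enrichment (a ratio over their background track), −log10 p and −log10 q values, and a summit, all used as deposited. The peak names mark library and input as normalised, without saying how.

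Positions are 1-based. STAG2 peaks were merged over the 4 libraries where they shared at least 1 bp, and a match to STAG1 or CTCF needed 1 bp. Percentiles are ranks of fold within a list. Genes are those of the RefSeq table of GRCm38.p6; all 149 listed genes were found there. Promoters are from the RefSeq promoter table, which holds 6 of the 9 genes. The members, gene lists and named genes were chosen with earlier results of these data known. Named are the members, genes sharing a member site, genes at the 3 highest STAG2 sites of a window, the 3 genes ranked just below, the 3 with the nearest profile, and listed genes with a like site. One gene that this rule names is not reported here. The merging and distance code was checked on simulated peaks and against bedtools 2.31.1. Python 3.11.15 and pandas 2.3.3 were used. Alternatives were a match over 50% of the shorter peak, −log10 q of at least 5, the 20000 best peaks, other windows, and leaving out each library.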

Additional observations from a re-analysis of the deposited data

How the results depend on the processing

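All 9 sites held under the rule in every alternative run. The members were chosen by this rule and for strong STAG2 peaks, so this is a description and no test of the choice. With the 20000 peaks of highest −log10 q per library, 7 member sites had no STAG1 peak, 1 window (against 0) had fewer STAG2 peaks in both quiescent libraries, and the median distance to CTCF was 8904 bases. With 50 kb on each side of the genes, 3 windows had fewer STAG2 peaks in both quiescent libraries. No share or median over all sites or genes is given for any of the alternative settings. Leaving out 1 library gave 4 to 5 sites with no STAG1 peak, 1 to 3 windows with fewer STAG2 peaks, and median distances of 1661 to 1700 bases. The single site added was Lancl1, without proliferating STAG1 replicate 2. Fewer libraries make the window criterion easier to meet; the cause of the other changes was not tested. No paired analysis was run. The labels number the replicates without saying that equal numbers belong together across states or antibodies. Read depth is unknown, so an absent peak cannot be told apart from a shallow library.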
